A study of Mus musculus with 3 samples.

Results

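Early round spermatids are the haploid cells of the seminiferous tubule that form when secondary spermatocytes complete meiosis. Here they were a set of cell barcodes chosen by expression from single-cell 3′ RNA libraries of adult mouse testis. A barcode was a member when it held at least 10000 unique molecular identifiers (UMIs, counted molecules) with at most 10% of them from mitochondrial genes, and when it met 3 further conditions. The UMIs of 4 marker genes (Acrv1, Spaca1, Tex36 and 1700001P01Rik) summed to at least 10, and that sum was above the sum of 6 spermatocyte genes (Piwil1, Mybl1, Tdrd1, Aurka, Cdc25c and Ccna1). Prm1, Prm2, Tnp1 and Tnp2 together, the protamines and transition proteins that compact the nucleus of elongating spermatids, took less than 0.5% of UMIs. The rule found 1410 members among 33038 barcodes: 382 in wildtype replicate 1, 631 in wildtype replicate 2 and 397 in the knockout library.

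The study compared testes of wildtype mice with testes of mice carrying a conditional knockout of Tex10, which encodes a nuclear protein described in ribosome assembly and in the gene network of stem cells. Wildtype replicate 1 and wildtype replicate 2 were each made from 1 adult wildtype mouse, and the knockout library pooled cells of 2 adult conditional Tex10 knockout mice. All libraries carry the strain C57BL/6N, and the testes were dissociated with collagenase IV. The Cre driver and the deleted exons are not given in the sources used here, so which cells had lost Tex10 function is not known. With 1 knockout library no difference between genotypes has a replicate check, and no p-value or standard error was made from cells. Unless stated otherwise, 3 values in a row are given in the order wildtype replicate 1, wildtype replicate 2, knockout library. Levels are given in CPM, the UMIs of a gene after scaling the summed UMIs of the cells to 1000000. Counting takes a UMI once per molecule at its 3′ end, so levels are not scaled to transcript length, and levels of different genes are set side by side only as counted molecules.

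Round spermatids build the acrosome, a secretory vesicle that grows over the nucleus and carries the enzymes and membrane proteins used at fertilization, and they begin to assemble the flagellum. Much of their messenger RNA is stored with RNA-binding proteins and translated later, when the nucleus condenses and transcription stops. Genes of the X and Y chromosomes are silenced during pachytene of meiosis, and a part of them is transcribed again in round spermatids.

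The promoter windows of 3 marker genes are shown because these genes chose the cells, and those of Ssxb1 and Ssxb2 because this pair of X-linked genes led the members over both neighbouring stages. The window of 4930515B02Rik is shown because it had the largest log2 ratio, with 1 CPM added, between the knockout library and wildtype. Each holds 250 bases before and 50 bases after the annotated start, from RefSeq on GRCm38.p6, written 5′ to 3′ on the strand of the gene. The windows lie at chr9:36692970-36693269, plus strand (Acrv1), chr4:34050016-34050315, minus strand (Spaca1, 1 of its 2 windows), chr7:133602066-133602365, minus strand (Tex36), chrX:8413055-8413354, plus strand (Ssxb1), chrX:8461677-8461976, minus strand (Ssxb2) and chr4:140872443-140872742, plus strand (4930515B02Rik). Capitals mark matches, on either strand, to the cAMP response element TGACGTCA, to its core TGACG, which the full element contains, and to GTTGCC, the half-site of RFX factors. 1700001P01Rik had no window in the table.
Acrv1: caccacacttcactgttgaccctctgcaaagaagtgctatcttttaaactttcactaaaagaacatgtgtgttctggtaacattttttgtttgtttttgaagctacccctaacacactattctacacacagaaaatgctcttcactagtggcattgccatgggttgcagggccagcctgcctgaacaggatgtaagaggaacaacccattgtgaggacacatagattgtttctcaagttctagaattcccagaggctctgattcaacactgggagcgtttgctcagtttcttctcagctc
Spaca1: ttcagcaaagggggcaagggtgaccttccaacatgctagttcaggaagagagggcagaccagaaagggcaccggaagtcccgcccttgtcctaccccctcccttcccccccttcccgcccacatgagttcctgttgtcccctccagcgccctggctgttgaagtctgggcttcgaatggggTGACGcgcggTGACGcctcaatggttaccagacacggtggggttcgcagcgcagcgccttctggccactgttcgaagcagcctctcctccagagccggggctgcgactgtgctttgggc
Tex36: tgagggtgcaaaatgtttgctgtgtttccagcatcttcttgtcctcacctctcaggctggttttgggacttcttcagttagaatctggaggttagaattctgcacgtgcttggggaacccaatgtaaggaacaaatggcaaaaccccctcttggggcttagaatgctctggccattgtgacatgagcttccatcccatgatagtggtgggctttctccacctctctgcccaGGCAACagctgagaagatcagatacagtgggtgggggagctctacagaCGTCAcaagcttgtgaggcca
Ssxb1: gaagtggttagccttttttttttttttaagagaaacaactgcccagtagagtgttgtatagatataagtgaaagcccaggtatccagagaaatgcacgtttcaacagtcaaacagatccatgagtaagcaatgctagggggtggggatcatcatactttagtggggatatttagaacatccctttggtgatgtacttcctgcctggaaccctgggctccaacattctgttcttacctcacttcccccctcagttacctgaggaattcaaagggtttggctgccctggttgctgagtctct
Ssxb2: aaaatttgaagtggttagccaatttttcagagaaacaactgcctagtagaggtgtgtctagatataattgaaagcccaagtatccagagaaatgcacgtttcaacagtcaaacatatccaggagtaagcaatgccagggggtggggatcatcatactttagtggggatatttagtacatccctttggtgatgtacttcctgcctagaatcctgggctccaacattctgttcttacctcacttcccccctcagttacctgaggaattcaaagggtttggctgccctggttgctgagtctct
4930515B02Rik: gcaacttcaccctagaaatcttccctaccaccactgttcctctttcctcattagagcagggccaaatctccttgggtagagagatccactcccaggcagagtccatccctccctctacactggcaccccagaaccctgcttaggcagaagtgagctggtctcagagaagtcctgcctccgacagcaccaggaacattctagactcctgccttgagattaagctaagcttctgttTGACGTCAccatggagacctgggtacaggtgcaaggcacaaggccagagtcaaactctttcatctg

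Crem, the cAMP response element modulator, and the RFX factors are known regulators of round spermatid genes. The Spaca1 window held the core motif 2 times, first bases 69 and 59 bases before the start. The Tex36 window held 1 core match after the start and 1 RFX half-site 19 bases before it, both read on the opposite strand. The Acrv1, Ssxb1 and Ssxb2 windows held none of the 3 motifs. The windows of Ssxb1 and Ssxb2 were identical at 279 aligned bases, with 13 mismatches and 16 gap bases. The 4930515B02Rik window held the full 8-base element 16 bases before the start. Over all 32851 promoter windows, 1.79% held the full element, 20.8% its core and 12.5% the RFX half-site. Windows of the genes compared between members and spermatocytes, the fitting background for the sets that follow, held them in 3.58%, 33.1% and 15.5%. Windows of genes at least 2-fold higher in members than in spermatocytes in every library held them in 4.03%, 25.9% and 19.2%, and windows of genes at least 2-fold lower in 2.92%, 34.8% and 12.6%. The core was thus less frequent in the higher genes than over all genes compared, the full element close to it and the RFX half-site more frequent. The sets also differed in base composition. G and C made up a mean of 54.6% of bases in windows of the higher genes, 59.3% over all genes compared and 61.5% in the lower genes. The part of base composition in the motif shares was not tested. The motif shares are descriptions of letters in a window and were not tested either.

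The label was held against the marker genes. Acrv1, which encodes an acrosomal vesicle protein, stood at 453, 502 and 494 CPM in the members. Spaca1, an acrosomal membrane protein needed to shape the acrosome, stood at 841, 810.02 and 843 CPM. Tex36 and 1700001P01Rik, testis genes of less studied function, stood at 593, 700.5 and 665 CPM and at 447, 476 and 487 CPM. The knockout levels lay within the wildtype range in Acrv1 and Tex36 and just above it in the other two. These values chose the members and are a description. In spermatocytes the same genes lay between 5.94 and 37.96 CPM.

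UMIs of spermatid genes were also found in barcodes of other cell types; free RNA and doublets can both give them and were not told apart. Deep barcodes with at least 0.5% of UMIs from markers of Sertoli, Leydig, myoid, endothelial cells and macrophages numbered 49, 41 and 111, with median UMI totals of 18749, 18112 and 25177. Acrv1 stood at 30.2, 32.6 and 23.3 CPM there, and 24.5, 24.4 and 29.7% of them held an Acrv1 UMI. Among members, 99.7, 100 and 100% held an Acrv1 UMI and 93.5, 95.2 and 97.5% a 1700001P01Rik UMI. The level of Acrv1 in spermatocytes, 15.9, 16.1 and 10.2 CPM, was below that of the somatic barcodes. However, 39.8, 35.6 and 30.6% of spermatocytes held an Acrv1 UMI, a larger share than of the somatic barcodes. Spermatocytes, defined below, were deeper, with median totals of 47291.5, 34734 and 63767 UMIs. Their rule also limited the marker sum. Whether their Acrv1 UMIs are background was not tested. The members' level of Acrv1 was above that of spermatocytes and of somatic barcodes in each library. Acrv1 and 1700001P01Rik were among the genes that chose the members, so their levels and shares in members are a description.

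2 stages neighbour the members and were cut from the same deep barcodes. Spermatocytes had at least 10 UMIs of the 6 spermatocyte genes, a sum no lower than that of the markers, and protamine and transition protein UMIs under 0.5%. Late round spermatids met the marker rule but had 0.5% to under 5% of these UMIs. The 4 marker genes summed to 79.9, 77.6 and 50.2 CPM in spermatocytes, 2334, 2489 and 2489 CPM in members and 3659, 3854 and 3688 CPM in late round spermatids. The protamine and transition protein genes summed to 1626, 1934 and 1516 CPM, 2753, 2999.8 and 2605 CPM and 15516, 18156 and 16901 CPM in the same stages. In members they were thus nearer to spermatocytes, which do not transcribe protamines, than to late round spermatids. The stages were cut on these same genes, so this order was largely set in advance and is a description.

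**Figure D1:**
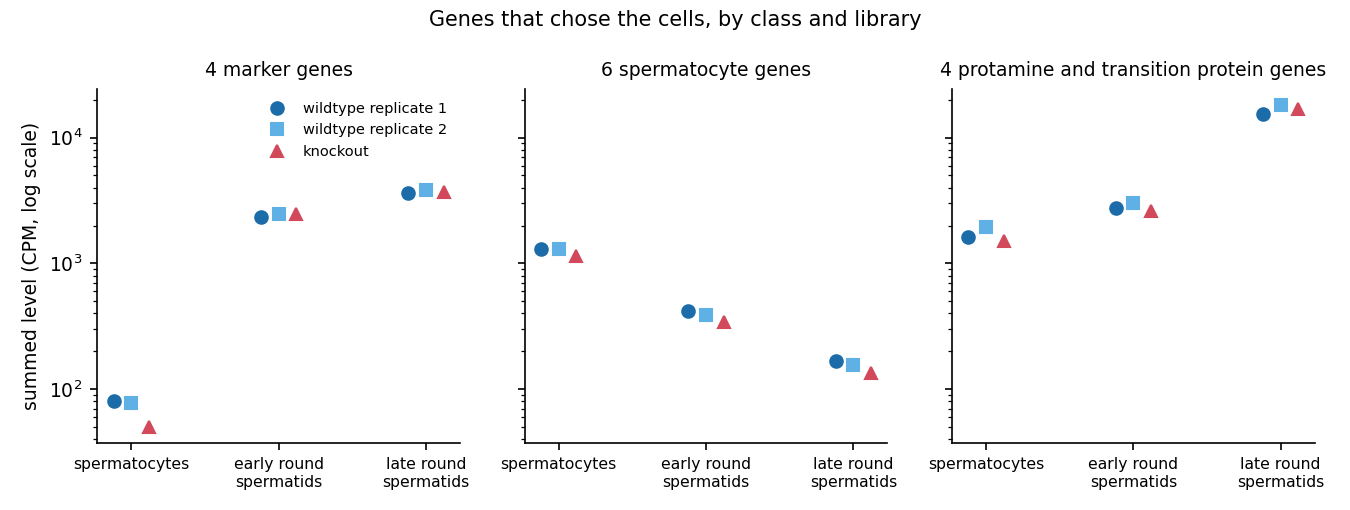
Summed level (CPM, log scale) of the genes that chose the cells, in spermatocytes, early round spermatids and late round spermatids. Each point is 1 library: circles are wildtype replicate 1, squares wildtype replicate 2 and triangles the knockout library. The marker sum lies between 2334 and 2489 CPM in the members of every library.

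Few barcodes lay near most limits of the rule. Marker sums of 10 to 14 were found in 13 members, and sums of 5 to 9 in 16 barcodes outside. UMI totals of 10000 to under 12000 were found in 35 members, and totals of 8000 to under 10000 in 30 barcodes that met the rest of the rule. The protamine limit was more crowded, with 93 members at 0.45% to under 0.5% and 54 barcodes at 0.5% to under 0.55%. The median protamine and transition protein share was 0.274, 0.303 and 0.2604% in members and 0.182, 0.207 and 0.1604% in spermatocytes.

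The libraries held 9967, 10153 and 12918 barcodes and 93418341, 96001773 and 147783171 UMIs. Deep barcodes, meaning at least 10000 UMIs and at most 10% mitochondrial, numbered 2318, 2742 and 3216. Members had median totals of 28775, 23478 and 38501 UMIs, so the knockout library was the deepest. At 10000 UMIs per cell, drawn at random, the median member showed 3387, 3393 and 3406 genes, a knockout excess of 16 genes that fell to 7.5 and 8 in other random draws. The library pairs shared 28, 30 and 27 barcode sequences, and 1 of these was a member in both libraries of its pair, wildtype replicate 2 and the knockout library. The summed level of 6 Sertoli cell markers in members was 55.9, 31.2 and 92.7 CPM, highest in the knockout library, and 3, 1 and 9 members held 10 or more of these UMIs. All 6 Sertoli markers had UMIs in each library, with Clu and Aard the highest. Spermatogonia, Leydig, myoid, macrophage, endothelial and red blood cell markers summed to at most 17.2 CPM each, and Hba-a1 was at 0 in every library.

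Early round spermatids made up 16.5% (95% Clopper-Pearson interval 14.99 to 18.1) of deep barcodes in wildtype replicate 1 and 23.01% (21.4 to 24.6) in wildtype replicate 2. In the knockout library the share was 12.3% (11.2 to 13.5). The knockout value differed by −7.402 percentage points from the wildtype mean of 19.7 ± 4.62% (SD, n = 2). It was below both wildtype libraries, which themselves differed by more than their intervals. The knockout library was also the deepest. With its barcodes thinned to the wildtype median depth its share was 14.9%, a difference of −4.87 percentage points. Relative to the neighbouring stages, members per spermatocyte numbered 0.606, 0.963 and 0.649, and members per late round spermatid numbered 3.54, 3.005 and 3.03. The knockout ratio lay within the wildtype range in both cases. With a limit of 0.25% the members numbered 149, 172 and 179, and their shares were 6.43, 6.27 and 5.57%. The number of members in each library thus rested on a limit close to the level of protamine RNA in spermatocytes. Intervals cover counting error only.

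The 10 most abundant genes of early round spermatids were Meig1, Ldhc, Fabp9, Gm5617, Ropn1l, Ubb, Gstm5, Pebp1, Rbakdn and Pgp. Meig1, needed for the manchette and sperm tail, led with 9174, 8944 and 7776 CPM, followed by Ldhc, the lactate dehydrogenase of germ cells, with 7824, 7393 and 7234 CPM. Fabp9, a fatty acid binding protein of the perforatorium, stood at 5069.6, 5101 and 4750.03 CPM. Gm5617 stood at 4159, 4170.1 and 4099 CPM, and Ropn1l, a fibrous sheath protein, stood at 4008, 3829 and 3981 CPM. Ubb, which encodes ubiquitin, stood at 3564, 3084 and 4673 CPM, with the knockout value above both wildtype values. Gstm5, a glutathione transferase, and Pebp1, a phosphatidylethanolamine-binding protein, stood at 3502, 3751 and 3456 CPM and 3572, 3324 and 3489 CPM, the long intergenic non-coding RNA Rbakdn at 3319.6, 3397 and 3296 CPM and Pgp at 3261, 2947 and 3358 CPM. Several were as abundant in spermatocytes, where Meig1 stood at 8362, 7962 and 6989 CPM and Ldhc at 9015, 8479 and 8277 CPM. The 10 most abundant genes together took 4.65% of UMIs and the top 100 took 20.3%, as means over the libraries.

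Between spermatocytes and early round spermatids a large part of the transcriptome differed. At least 2-fold in each of the 3 libraries, with 1 CPM added, 1656 of 6853 genes (24.2%) were higher in members and 1987 (29.0%) were lower. Against late round spermatids 420 of 5726 genes (7.33%) were higher and 708 (12.4%) lower. Tested genes reached 20 CPM in every library in at least 1 of the stages compared. Because the stages were cut by expression, these counts describe the classes and were not tested.

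54 of 5156 genes (1.05%) at 20 CPM or more in the members of every library were at least 2-fold above both neighbours in all of them. Zfp819, a zinc finger gene, led with 29.5, 27.8 and 28.5 CPM in members against 2.94, 3.09 and 1.92 CPM in spermatocytes and 6.01, 5.42 and 4.45 CPM in late round spermatids. The 3 libraries did not overlap between the stages, which the choice by this ratio largely set in advance. Ssxb2 and Ssxb1, X-linked genes of the SSX family, stood at 50.3, 48.1 and 39.2 CPM and at 36.1, 39.3 and 30.99 CPM in members. In late round spermatids Ssxb2 stood at 10.9, 5.07 and 4.08 CPM, with wildtype replicate 1 the highest. Both genes share part of their 3′ ends with other family members (75.5% and 47.7% of 31-base words), so the level of each single copy is uncertain. Gm6588 stood at 72.6, 75.8 and 81.9 CPM in members, 1.87, 2.03 and 1.52 CPM in spermatocytes and 20.3, 12.1 and 9.63 CPM in late round spermatids.

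5 of the 10 leading genes, Gm3453, Gm10375, Gm8362, Gm3149 and Gm5797, belong to a multicopy cluster on chromosome 14, where 88.3% to 99.4% of the 3′ end is shared with other genes. Reads of the copies could be divided between them, so the levels of single copies are uncertain. Gm3453 stood at 107, 90.5 and 47.04 CPM and Gm8362 at 101, 95.7 and 42.3 CPM, both lowest in the knockout library. Gm3149 stood at 56.95, 48.1 and 105 CPM, highest in the knockout library. The copies thus differed in direction between the genotypes. Gm30228, a long intergenic non-coding RNA on chromosome 10, completes the 10 genes with 27.95, 29.7 and 24.3 CPM.

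**Figure D2:**
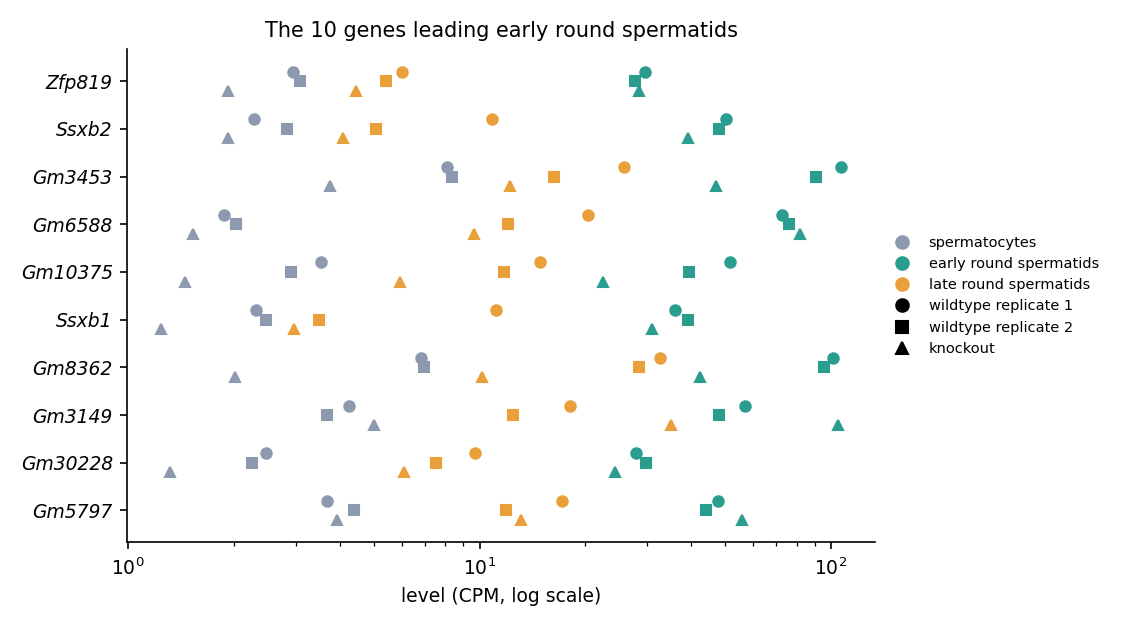
Levels (CPM, log scale) of the 10 genes with the largest smallest ratio of early round spermatids over both neighbours. Colours mark the stage and shapes the library. In every gene shown the members of each library lie above both neighbours of the same library, as the choice of genes required.

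Acrosome genes were mostly higher than in spermatocytes. Of the 36 genes of an acrosome list, 35 could be compared with spermatocytes. 23 of them were at least 2-fold higher in members than in spermatocytes in every library and 1 was lower, against 24.2% and 29.0% of all genes tested. The list holds Acrv1 and Spaca1, which the rule used. Fam209, an acrosomal membrane protein, reached 1010.4, 1024 and 1215 CPM, 31.01- to 55.9-fold above spermatocytes. Spaca3, a lysozyme-like acrosomal protein, reached 727, 729.6 and 823 CPM, and Izumo1, the sperm protein that binds the egg receptor Juno, reached 129, 136 and 161 CPM. Zpbp and Acrbp, binding proteins of the acrosomal matrix, were already present in spermatocytes at 280.3, 277 and 280.5 CPM and 342, 353 and 365 CPM, and stood at 451, 452 and 463 CPM and 419, 436 and 426 CPM in members. Dkkl1, an acrosomal protein related to dickkopf Wnt inhibitors, stood at 749, 908 and 875 CPM in members and 914, 1077 and 1049.7 CPM in spermatocytes. Gopc, a Golgi protein needed to form the acrosome, was lower in members, at 3.14, 2.22 and 3.23 CPM against 36.2, 36.5 and 36.6 CPM in spermatocytes.

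Of 42 flagellar genes, all of which could be compared, 11 (26.2%) were at least 2-fold above spermatocytes in every library and 6 (14.3%) at least 2-fold below. The higher share was close to the 24.2% of all genes and the lower share under their 29.0%. The higher genes included Catsper1, Catsper3 and Catsper4 of the CatSper calcium channel, the fibrous sheath proteins Akap3, Akap4 and Ropn1, Odf1 of the outer dense fibres and the tektins Tekt2 and Tekt4. Catsper3 stood at 159, 187 and 209 CPM, 32.5- to 55.1-fold above spermatocytes, and Tekt2 at 865, 870.1 and 1060.2 CPM. Odf2, a protein of the outer dense fibres, stood at 1352, 1491 and 1454 CPM in members and 828, 878 and 861 CPM in spermatocytes. The lower genes included the axonemal dynein heavy chains Dnah1, Dnah8 and Dnah17. Dnah8 stood at 892, 892 and 949 CPM in spermatocytes, 164, 139 and 149 CPM in members and 80.2, 64.5 and 60.96 CPM in late round spermatids. Rsph1, a radial spoke protein, stood at 4139, 4012 and 4337 CPM in spermatocytes and 1471, 1325 and 1236 CPM in members.

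Of 17 transcription regulators compared, 7 (41.2%) were higher in members than in spermatocytes and 1 (5.88%) was lower, beside 24.2% and 29.0% of all genes. Crem stood at 535, 572 and 531 CPM, 2.63- to 2.75-fold above spermatocytes. Its co-activator Fhl5 (ACT) stood at 224, 238 and 289 CPM, 21.2- to 35.01-fold above, and Sox5 at 311, 347 and 386 CPM, 26.9- to 45.7-fold above. Rfx1 stood at 45.996, 45.8 and 44.5 CPM, 10.8- to 11.99-fold above, whereas Rfx2, an RFX factor needed in spermatids, passed neither limit. Tbpl1, a TBP-like factor, was the most abundant of the list with 993, 930.2 and 802 CPM. Tcfl5, a basic helix-loop-helix factor of spermatocytes, stood at 321, 310.1 and 317 CPM in members. Hsf5, a heat shock factor of meiosis, was 2.46- to 2.77-fold lower.

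Of 24 genes of RNA storage and translation compared with spermatocytes, 4 (16.7%) were higher and 3 (12.5%) lower in members, both under the shares of all genes, 24.2% and 29.0%. Ybx3 and Ybx2, which bind stored messages, stood at 2271, 2265 and 2305 CPM and 705, 717 and 632 CPM. The poly(A)-binding protein genes Pabpc1 and Pabpc2 stood at 1061, 1046 and 1013 CPM and 747, 809 and 742 CPM. Paip2, a repressor of poly(A)-binding protein, stood at 531, 561 and 588 CPM, 3.81- to 4.76-fold above spermatocytes. Kif17, a kinesin that binds the Crem co-activator Fhl5, stood at 31.8, 36.03 and 68.03 CPM against 2.58, 2.32 and 3.94 CPM in spermatocytes. Dazl, a translational activator of earlier germ cells, stood at 28.8, 23.4 and 18.6 CPM, 5.096- to 7.94-fold below spermatocytes.

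Of 28 chromatin genes compared, 8 (28.6%) were higher in members than in spermatocytes and 9 (32.1%) were lower, close to the 24.2% and 29.0% of all genes. The list holds the 4 genes that the rule limited. The most abundant genes of the list passed neither limit: H3f3b, which encodes the histone variant H3.3, stood at 1944, 1911 and 2021 CPM. Phf7, a ubiquitin ligase of histones, stood at 1713, 1635 and 1805 CPM, and Hspa2, a germ cell chaperone, at 1083, 1004 and 1027 CPM. Hils1 and H1fnt, spermatid linker histones, stood at 994, 1108 and 1202 CPM and 188, 185 and 242 CPM, 24.9- to 40.5-fold and 9.43- to 11.8-fold above spermatocytes. Chd5, a remodeller needed for histone removal, stood at 115, 144 and 193 CPM, and Cdyl, a chromodomain co-repressor, at 70.9, 83.4 and 96.3 CPM. The testis histones Hist1h2ba and Hist1h1t, made in spermatocytes, stood at 1.45, 2.35 and 2.94 CPM and 19.98, 22.1 and 17.7 CPM in members against 60.996, 50.2 and 98.7 CPM and 156, 154 and 220.3 CPM. Tnp1, which the rule limited, was 2.76- to 3.23-fold above spermatocytes.

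Of 22 energy genes compared, 5 (22.7%) were higher and 2 (9.09%) lower in members than in spermatocytes, beside 24.2% and 29.0% of all genes. The higher genes were Hk1, Slc16a7 and the glycolytic forms of sperm Pgk2, Gapdhs and Aldoart1. Gapdhs, the glyceraldehyde phosphate dehydrogenase of sperm, stood at 274, 312 and 336 CPM, 7.56- to 12.1-fold above spermatocytes, and Pgk2 at 326, 392 and 406 CPM, 3.101- to 3.504-fold above. Cox8c and Cox6b2, testis subunits of cytochrome c oxidase, stood at 2288, 2258 and 1796 CPM and 942, 1097 and 861 CPM, and Pgam2, a phosphoglycerate mutase, at 976, 1019 and 1005 CPM. Slc2a3, a glucose transporter, stood at 52.2, 52.1 and 45.3 CPM, 11.9- to 12.95-fold below. Of 15 ribosome assembly genes compared, 1 (6.67%) was higher and 6 (40%) were lower. Rrs1, a nucleolar factor of the large subunit, stood at 3.22, 1.85 and 2.29 CPM, 10.5- to 16.6-fold below spermatocytes, while the nucleolar chaperone Npm1 stood at 751, 708 and 694 CPM. Wdr12, Nop58 and Rpf2 stood at 325, 306 and 340.2 CPM, 76.4, 80.04 and 80.8 CPM and 40.6, 49.4 and 51.5 CPM, and Rpf2, a large subunit assembly factor, was the gene that was higher than in spermatocytes. No p-value bears on these list counts.

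Against late round spermatids the same lists gave fewer genes past the limit. Of 34 acrosome genes compared, 1 was at least 2-fold higher in members in every library and 2 were lower, beside 7.33% and 12.4% of all genes. Dpy19l2, a nuclear membrane protein that anchors the acrosome, stood at 91.7, 84.98 and 77.8 CPM in members and 42.9, 34.6 and 30.8 CPM in late round spermatids. Spaca6, a sperm membrane protein of gamete fusion, stood at 58.97, 60.7 and 63.03 CPM and 126, 131 and 129 CPM. Of 42 flagellar genes compared, 4 were higher in members, namely Dnah8, Rsph1, Ccdc39 and Ccdc40. Only Tekt5, a tektin, was lower, at 21.99, 21.01 and 25.9 CPM against 94.2, 130.2 and 149.7 CPM. Of 21 chromatin genes compared, 1 was higher and 9 were lower in members, and 4 of these 9 were those that the rule limited. The other lower genes were H1fnt, H2al2a, Cdyl, Prm3 and the kinase gene Tssk6. Prm3 stood at 713, 817 and 941 CPM in members and 1871, 2132 and 2243 CPM in late round spermatids. Fhl5 was lower in members, with 617, 697 and 783 CPM in late round spermatids, and Tbpl1 higher, with 439.7, 371 and 305 CPM there.

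Sex chromosome transcripts were far more abundant in members than in spermatocytes. X-linked genes took 0.0842, 0.0933 and 0.0888% of UMIs in spermatocytes, 1.06, 1.08 and 1.13% in early round spermatids and 1.78, 1.79 and 1.91% in late round spermatids. The increase was seen in every library, and the stages did not overlap. Y-linked genes summed to 54.6, 57.6 and 68.6 CPM in spermatocytes, 530.1, 537 and 576 in members and 569.96, 593 and 596 in late round spermatids. X-linked genes at 20 CPM or more in every library numbered 3 in spermatocytes, 100 in members and 121 in late round spermatids, of 1084 X-linked genes counted. All 100 of those in members were at least 2-fold above spermatocytes in every library. These genes were chosen by their level in members, and only 3 X-linked genes reached 20 CPM in spermatocytes. The choice thus favoured this outcome, and the count is a description.

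A single gene led the X-linked transcripts. Tsga8, which encodes a basic nuclear protein of spermatids, stood at 86.8, 78.3 and 54.5 CPM in spermatocytes and 1551, 1497 and 1597 CPM in members, 14.2% of the X-linked UMIs of members. Slxl1, an X-linked gene of the Slx family, stood at 543, 482 and 457 CPM in members, with 93.4% of its 3′ end shared with other copies. Cypt1, a cysteine-rich perinuclear theca gene, stood at 368, 391 and 396 CPM, and Akap4, the main fibrous sheath protein, at 212, 218 and 278 CPM. Cypt3, of the same family as Cypt1, stood at 100.5, 119 and 129 CPM. On the Y chromosome Eif2s3y, a translation initiation factor subunit, led with 90.1, 93.4 and 91.6 CPM in members and 4.304, 4.75 and 4.53 CPM in spermatocytes. Of 25 sex-linked genes listed as spermatid genes, 12 reached the level needed to be compared, which for genes silent in spermatocytes is itself a difference. Of these 12 were at least 2-fold above spermatocytes and 0 below.

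**Figure D3:**
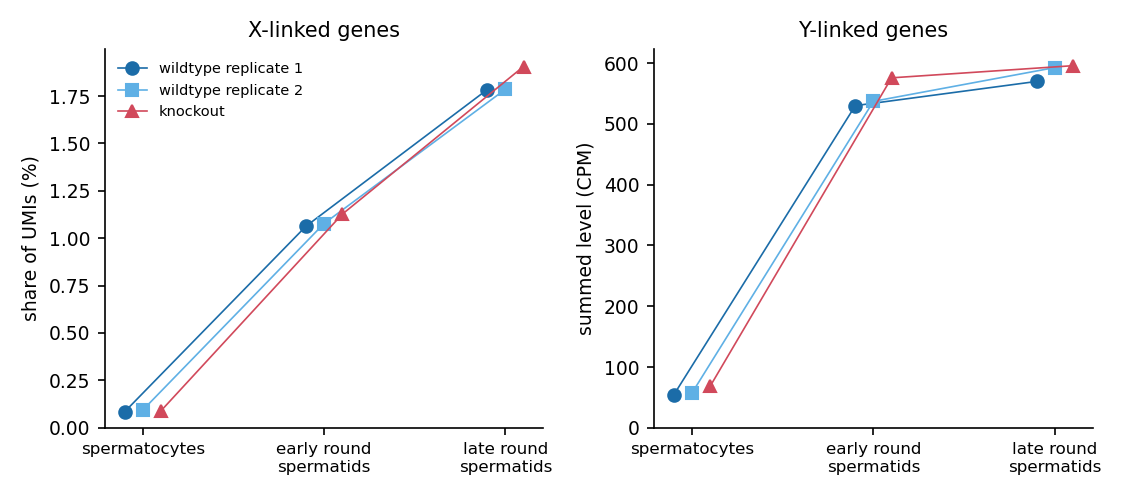
Share of UMIs from X-linked genes (%, left) and summed level of Y-linked genes (CPM, right) in 3 stages. Points joined by lines are libraries; the X-linked share of early round spermatids lies between 1.06% and 1.13%, and that of spermatocytes at most at 0.0933%.

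Members also differed among themselves. They were ordered by the share of spermatocyte genes in the sum of spermatocyte and marker genes, and divided at 21.5% and 8% into a first tercile, with the most spermatocyte transcripts, a middle and a last tercile. The first tercile held 43.7, 31.1 and 26.95% of members and the last tercile 26.96, 35.97 and 35.8%, so wildtype replicate 1 had the largest share of its members at the spermatocyte end. The X-linked share was 0.744, 0.746 and 0.773% in the first tercile, 1.03, 0.9903 and 1.02% in the middle and 1.55, 1.44 and 1.45% in the last tercile. Y-linked genes summed to 447, 447 and 464 CPM in the first tercile and 627, 625 and 651 CPM in the last. At least 2-fold in each library, 1006 of 5804 genes (17.3%) were higher in the last tercile than in the first and 676 (11.6%) were lower. The order was made from expression, so these counts are a description.

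Genes that the rule did not use followed this order in each library. Gm33525, a gene model on chromosome 14, stood at 2.499, 3.71 and 2.76 CPM in the first tercile, 15.7, 17.4 and 18.1 CPM in the middle and 122, 119 and 98.4 CPM in the last. Saxo1, a stabiliser of axonemal microtubules, stood at 3.27, 4.89 and 6.68 CPM in the first and 110.3, 91.6 and 107 CPM in the last tercile. In the other direction Slc2a8, a hexose transporter, stood at 49.8, 48.3 and 40.3 CPM, 19.7, 22.6 and 11.6 CPM and 2.43, 2.55 and 1.81 CPM. Diablo, a mitochondrial regulator of apoptosis, stood at 283, 263 and 260.01 CPM in the first and 28.9, 31.8 and 28.5 CPM in the last tercile. Nolc1, a nucleolar phosphoprotein, stood at 25.4, 29.1 and 26.7 CPM and 2.16, 2.21 and 2.41 CPM, and the X-linked Ssxb3 at 33.4, 28.5 and 20.04 CPM and 0.2702, 0.5101 and 1.06 CPM. For these genes the first and last terciles did not overlap between libraries. These genes were named as those with the largest ratios, after their values were seen.

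**Figure D4:**
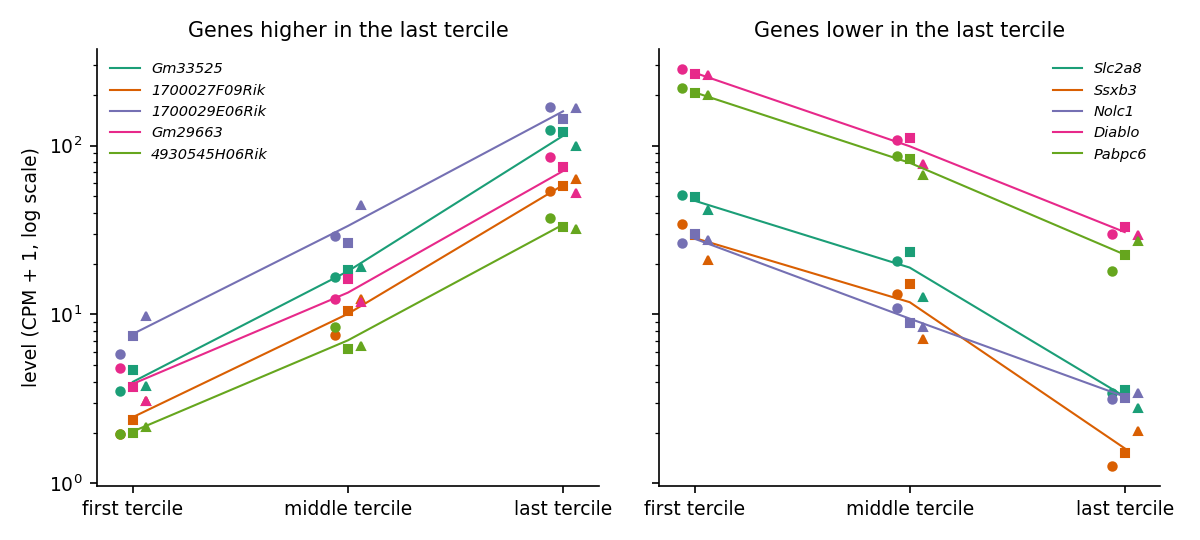
Levels (CPM + 1, log scale) of the 5 genes most raised (left) and most lowered (right) from the first to the last tercile of early round spermatids ordered by their spermatocyte gene share. Circles mark wildtype replicate 1, squares wildtype replicate 2, triangles the knockout library, and lines join their means; Gm33525 reaches at least 98.4 CPM in the last tercile of each library.

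Tex10 was the targeted gene, and its levels are a description that cannot check the genotype labels. In early round spermatids it stood at 42.5 CPM (38.9 to 46.2) in wildtype replicate 1, 38.999 CPM (36.02 to 42.2) in wildtype replicate 2 and 27.5 CPM (25.03 to 30.1) in the knockout library, on 527, 631 and 467 UMIs (95% Poisson intervals, counting error only). The knockout interval lay below both wildtype intervals, which leave out differences between mice. Of the 5674 genes that reached 20 CPM in some library, 39.5% had a knockout level below both wildtype levels, counted without intervals. A knockout level below both is thus common and not particular to Tex10. The wildtype mean of Tex10 was 40.7 ± 2.44 CPM (SD, n = 2), and the knockout library had 67.4% of it, a log2 ratio of −0.55. Against wildtype replicate 1 and wildtype replicate 2 alone the log2 ratios were −0.61 and −0.49. Both were under 2-fold, so Tex10 did not pass the size rule given below. Tex10 was lowest in the knockout library in each tercile of the members. It stood at 49.98, 51.99 and 32.01 CPM in the first and 32.2, 29.6 and 21.9 CPM in the last tercile. Spermatocytes had 62.2, 61.4 and 53.4 CPM and late round spermatids 24.6, 20.1 and 16.9 CPM. UMIs come from the 3′ end of the transcript and the deleted exons are not known, so these levels do not measure intact Tex10 message. Tex10 (chromosome 4, 48430858 to 48473459, minus strand, GRCm38) overlaps Invs on the other strand.

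Which genes differed in the knockout library was asked by a fixed size rule. To pass, a gene had to differ 2-fold or more from both wildtype libraries in 1 direction (log2 ratios were taken after adding 1 CPM) and to reach 20 CPM in some library. The smaller of its log2 ratios also had to be 2 or more times the size of the wildtype pair's own log2 ratio. Among 5674 genes tested, 67 (1.18%) met the rule. Knockout levels were above wildtype in 28 (0.493%) and below it in 39 (0.687%). When wildtype replicate 1 was treated as the knockout, 0 genes met it, and when wildtype replicate 2 was so treated 3 did, namely Cst12, Aard and AY036118. The wildtype libraries differed by a median of 0.0891 on the log2 scale over the genes tested, and by 2-fold or more in 6 of them. Their counts still differed beyond sampling noise (chi-square over degrees of freedom 3.86), so they were kept as separate samples. Leaving out wildtype replicate 1 gave 82 genes and leaving out wildtype replicate 2 gave 83, since a condition of the rule falls away. With the protamine limit at 0.25%, 149, 172 and 179 members remained and 112 genes passed, 57 of them among the 67. Ephb1, Gm4665, Zbtb40, Kpna1 and Gm45463 then no longer passed.

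By log2 ratio with 1 CPM added, the gene raised most was 4930515B02Rik, a long intergenic non-coding RNA (chromosome 4, 140872693 to 140878055, plus strand). It had 3, 5 and 881 UMIs. Wildtype replicate 1 held 0.242 CPM (0.0498 to 0.706), wildtype replicate 2 held 0.309 CPM (0.1003 to 0.721) and the knockout library 51.8 CPM (48.4 to 55.3), with 95% Poisson intervals. The log2 ratios were 5.41 and 5.33. The counted ratio to wildtype replicate 1 was 214 (95% interval 73.1 to 1041) and to wildtype replicate 2 168 (95% interval 71.6 to 518). In spermatocytes of the knockout library it stood at 0.938 CPM and in late round spermatids at 40.2 CPM, the lowest of the 3 stages being spermatocytes. It was present at 44.9, 50.7 and 57.3 CPM in the first, middle and last tercile. None of its 3′ end was shared with other genes.

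9530002B09Rik, a protein-coding gene (chromosome 4, 122689275 to 122705129, plus strand), had 1, 2 and 576 UMIs and 0.0806, 0.124 and 33.9 CPM, with log2 ratios of 5.01 and 4.96. Its counted ratio to wildtype replicate 1 was 420.5 (95% interval 75.2 to 16635). With no CPM added, its ratio was thus larger than that of 4930515B02Rik, within overlapping intervals. Ephb1, an ephrin receptor kinase (chromosome 9, 101922128 to 102354693, minus strand), had 2, 3 and 348 UMIs and 0.161, 0.185 and 20.5 CPM. Its knockout level was just over the 20 CPM limit of the rule, and it did not pass when knockout barcodes were thinned to the wildtype depth or when the terciles defined above had equal weights. In the knockout library Ephb1 stood at 4.61, 15.1 and 35.7 CPM in the first, middle and last tercile. Overlapping genes lie on both strands, so these UMIs may not all be Ephb1.

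Pccb, a subunit of mitochondrial propionyl-CoA carboxylase (chromosome 9, 100982032 to 101034898, minus strand), stood at 7.73, 8.16 and 101 CPM, a knockout level 12.7 times the wildtype mean, with log2 ratios of 3.55 and 3.48. It increased along the order of members in every library, from 0.961, 3.52 and 42.4 CPM in the first tercile to 21.3, 15.1 and 158 CPM in the last. Bloc1s6, a subunit of the BLOC-1 complex of lysosome-related organelles (chromosome 2, 122738503 to 122749475, plus strand), stood at 4.03, 3.03 and 37.5 CPM. In wildtype its level in the last tercile was below that in the first, whereas in the knockout library it went from 18.7 to 58.8 CPM. Spermatocytes had 16.4, 17.5 and 12.5 CPM, where Bloc1s6 did not pass the rule. The long intergenic non-coding RNA Gm41206 (chromosome 14, 72789353 to 72860268, plus strand) stood at 4.27, 4.08 and 51.98 CPM, and Gm10338 of the chromosome 14 cluster at 9.18, 6.98 and 97.96 CPM, with 92.2% of its 3′ end shared.

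Sh3bgrl3, an SH3-binding protein of the glutaredoxin-like family (chromosome 4, 134127406 to 134128789, minus strand), stood at 6.61, 5.995 and 53.4 CPM in members and at 107, 68.2 and 281 CPM in the somatic-marker-rich barcodes, which were higher. It overlaps Ubxn11 on the other strand, so its level is uncertain. Gm4665, annotated antisense to Osbpl10, stood at 1.13, 1.61 and 30.8 CPM in members and at 4.17, 14.3 and 30.4 CPM in those barcodes. In late round spermatids it stood at 4.29, 3.85 and 244 CPM. In members of the knockout library Sh3bgrl3 was thus below, and Gm4665 level with, its value in cells of another type in the same suspension, so free RNA cannot be told apart from expression here. Sertoli markers were also highest in the knockout members, and their part in these levels was not tested; without the members that held 10 or more UMIs of other cell types' markers, 64 genes passed, all of them among the 67.

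4933406J10Rik, annotated antisense to Efl1, stood at 0.967, 0.556 and 28.8 CPM, and Efl1 itself, a GTPase of ribosome maturation, at 102, 119 and 31.99 CPM. The first was higher in the knockout library and the second lower, with 3.92 and 4.26 and −1.64 and −1.87 as their log2 ratios. Strand use in counting is not given in the sources used here, so reads of the overlapping part cannot be assigned with certainty. Among higher genes outside the top 10, Nckap1, a subunit of the WAVE actin regulatory complex, stood at 17.7, 19.3 and 113 CPM and Mrto4, a ribosome assembly factor not in the list used, at 57.2, 51.1 and 222 CPM. Efl1, Nckap1 and Mrto4 were chosen after their values were seen.

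**Figure D5:**
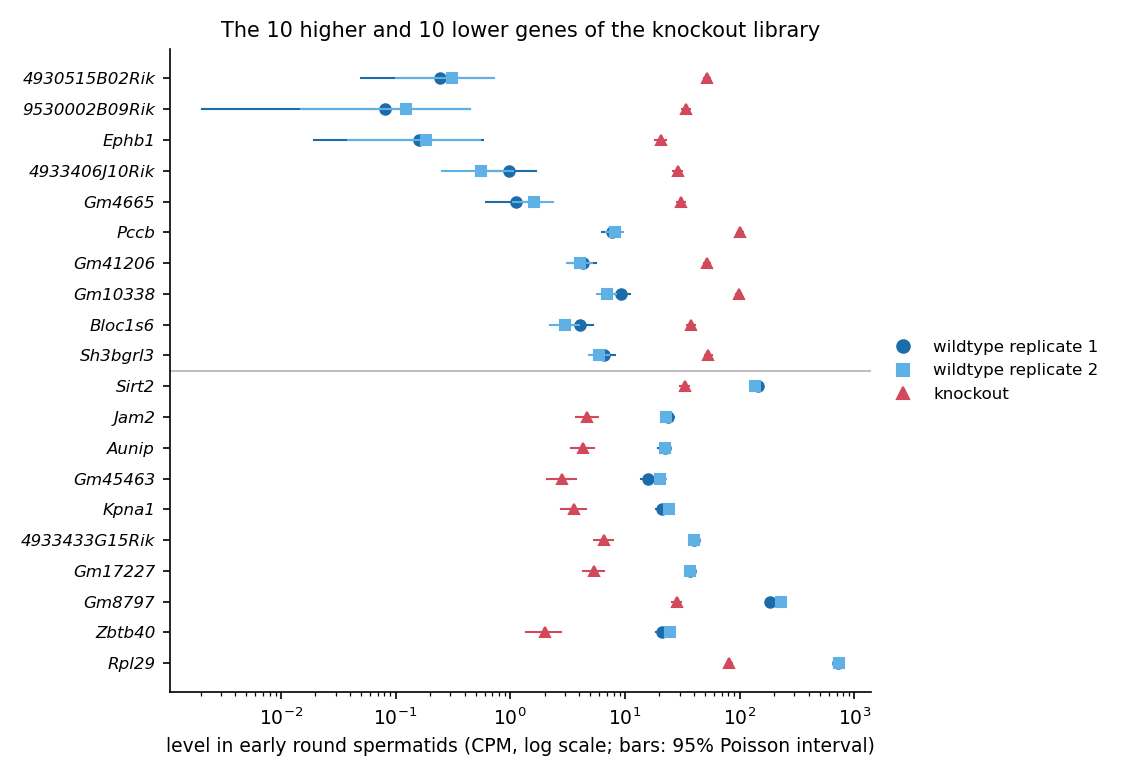
Levels in early round spermatids (CPM, log scale) of the 10 higher and 10 lower genes with the largest smaller ratio, above and below the grey line. Points are libraries and bars 95% Poisson intervals of counting error. As the size rule required, the knockout library lies on 1 side of both wildtype libraries in each gene, for example Rpl29 at 81.3 against 728 and 729.9 CPM.

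Rpl29, a protein of the large ribosomal subunit (chromosome 9, 106429454 to 106431568, plus strand), was lowered most by log2 ratio with 1 CPM added. Wildtype replicate 1 held 728 CPM (714 to 744), wildtype replicate 2 held 729.9 CPM (717 to 743) and the knockout library 81.3 CPM (77.1 to 85.7), with log2 ratios of −3.15 and −3.15. Other genes hold 57.7% of its 3′ end words, so its own level is uncertain. Gm8797, with 93.04% shared, stood at 183, 231 and 28.3 CPM. Zbtb40, a zinc finger gene (chromosome 4, 136979732 to 137048801, minus strand), stood at 21.2 CPM (18.7 to 23.9) and 24.5 CPM (22.2 to 27.1) in wildtype and 1.999 CPM (1.38 to 2.79) in the knockout library. Its wildtype level went from 13.5 and 14.1 CPM in the first tercile to 29.99 and 32.8 CPM in the last. In the knockout library it went from 3.45 to 1.51 CPM. It passed the rule in members and in neither neighbour, where it stood at 4.601, 5.63 and 5.14 CPM and 15.2, 16.96 and 1.48 CPM, all under the 20 CPM limit.

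Kpna1, an importin alpha that carries proteins into the nucleus (chromosome 16, 35978750 to 36037131, plus strand), stood at 21.02, 24.4 and 3.59 CPM in members, with log2 ratios of −2.26 and −2.47. In spermatocytes it stood at 12.7, 14.3 and 11.5 CPM and in late round spermatids at 34.4, 34.3 and 2.96 CPM. The wildtype level thus increased from spermatocytes to late round spermatids while the knockout level decreased. Kpna1 overlaps Gm15564 on the other strand, and Sirt2, named next, overlaps Nfkbib, so with strand use unknown both levels are uncertain. Sirt2, an NAD-dependent deacetylase of tubulin (chromosome 7, 28766735 to 28788661, plus strand), stood at 145, 137 and 33.1 CPM in members and 198, 206 and 143 CPM in spermatocytes. Aunip, a partner of Aurora A kinase (chromosome 4, 134510999 to 134523927, plus strand), and Jam2, a junctional adhesion molecule (chromosome 16, 84774123 to 84825928, plus strand), stood at 22.2, 22.5 and 4.29 CPM and 23.8, 22.8 and 4.704 CPM. Jam2 was higher in the somatic-marker-rich barcodes, at 37.5, 28.5 and 54.8 CPM.

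Among the non-coding genes lowered, 4933433G15Rik stood at 40.1, 39.99 and 6.59 CPM and Gm17227, annotated antisense to Mark2 and therefore uncertain, at 36.8, 36.8 and 5.35 CPM. Gm45463, a processed transcript overlapping Ces1a, stood at 16.03, 20.4 and 2.82 CPM and no longer passed without wildtype replicate 2, where its log2 ratio was −2.16 and its levels lay under 20 CPM. Further lowered genes, chosen after their values were seen, included BC061237, a gene of chromosome 14 with 60% of its 3′ end shared, at 285, 306 and 139 CPM, and Ndufc2, a subunit of respiratory complex I, at 57.8, 55.01 and 25.7 CPM. Rrm1, a subunit of ribonucleotide reductase, stood at 33.2, 29.8 and 13.3 CPM. All 67 genes kept their direction against each wildtype library in the alternatives run on this count.

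The remaining genes past the rule, described here after their values were seen, had smaller ratios. Camk2n1, an inhibitor of calcium/calmodulin-dependent kinase II, stood at 127, 114 and 293 CPM and Gpr62, an orphan receptor, at 64.8, 62.9 and 147 CPM. Prss45, a serine protease, stood at 36.2, 35.9 and 113 CPM and Tent5b, a poly(A) polymerase, at 7.17, 5.93 and 31.05 CPM. G3bp1, a stress granule protein that binds RNA, stood at 13.8, 12.98 and 30.99 CPM. All of these were higher in the knockout library. Among lower genes Farsa, the alpha subunit of phenylalanyl-tRNA synthetase, stood at 50.3, 46.97 and 15.1 CPM and Mecr, an enzyme of mitochondrial fatty acid synthesis, at 33.4, 35.4 and 14.99 CPM. Cep70, a centrosomal protein, stood at 34.8, 35.9 and 11.8 CPM and Rcc2, a regulator of chromosome condensation, at 20.5, 19.04 and 8.702 CPM. Irak4, a kinase of innate immune signalling, stood at 20.5, 17.7 and 8.06 CPM, close to the 20 CPM limit. Gpr62, Tent5b, Cep70 and Irak4 overlap genes on the other strand and G3bp1 one on its own strand, so their levels are uncertain. The non-coding 1700048O20Rik, with 33.96% of its 3′ end shared, stood at 133, 133 and 46.4 CPM and 1700034K08Rik, in the other direction, at 36.97, 46.7 and 158 CPM.

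The same rule was run in the neighbouring stages, whose cells come from the same libraries. In spermatocytes 35 of 5895 genes passed (0.594%) and in late round spermatids 69 of 5671 (1.22%). Of the 67 genes of the members, 20 (29.9%) also passed in spermatocytes, which is 57.1% of the genes that passed there. Only 37 of the 67 could be tested in spermatocytes, and 54.1% of these passed. 44 (65.7%) also passed in late round spermatids, 63.8% of the genes there, and 81.5% of the 54 that could be tested. 18 passed in all 3 stages, among them Rpl29, Nckap1, Mrto4 and Sh3bgrl3, and 0 passed in opposite directions. 21 passed in members and in neither neighbour, among them Zbtb40, Jam2, Rrm1 and Ndufc2. Of these, 11 could be tested in spermatocytes and 10 in late round spermatids, and whether their ratios differed between stages was not tested.

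The genes were not spread evenly over the chromosomes. Chromosome 4, which holds Tex10, had 17 of the 67 (7 higher and 10 lower), chromosome 9 had 15, chromosome 14 had 9 and chromosome 7 had 7. These 4 chromosomes held 48 of 67 genes (71.6%) and 23.8% of the genes tested. They were named after the counts were seen. No gene of the X chromosome passed, of 112 tested, beside 1.18% of all genes tested. None passed on chromosomes 6, 10, 13, 17 and 18 either. By annotation 42 of the genes were protein-coding, 13 long intergenic non-coding RNAs, 6 antisense and 6 processed transcripts. All libraries carry the same strain label, and differences in genetic background between the mice cannot be told apart from the genotype with 1 knockout library.

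None of the 34 acrosome genes tested, 42 flagellar genes, 17 transcription regulators, 24 RNA storage genes, 23 chromatin genes, 21 energy genes or 12 sex-linked spermatid genes passed the rule, against 1.18% of all genes. Median log2 ratios to the wildtype mean, over list genes at 5 CPM or more, were 0.09 for the acrosome, 0.09 for the flagellum, −0.04 for transcription regulators and −0.05 for RNA storage. They were 0.03 for chromatin, −0.04 for energy and −0.02 for sex-linked genes, beside −0.01 over all 9069 genes at that level. Against wildtype replicate 1 and wildtype replicate 2 alone the acrosome median was 0.15 and 0.05, the energy median 0.01 and −0.04, and the sex-linked median 0.0006 and −0.03. Single genes went both ways: Gmeb1, a glucocorticoid element binding protein, had a log2 ratio of −0.65, Dazl −0.47, Cox7b2 −0.42 and Chd5 0.57. Among list genes that did not pass, the ratio furthest from 0 was that of Kif17, which stood at 31.8, 36.03 and 68.03 CPM, a log2 ratio of 0.98, under the 2-fold limit against wildtype replicate 2.

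The lists closer to Tex10 gave 1 gene past the rule. The 8 genes of the Tex10 complex at 5 CPM or more had a median log2 ratio of −0.08, and none passed. Its partners Chtop, Wdr18 and Pelp1 stood at 96.6, 96.4 and 95.6 CPM, 71.05, 66.3 and 70.1 CPM and 33.9, 33.6 and 31.8 CPM. Of 12 ribosome assembly genes tested, Rrp9, a protein of the U3 small nucleolar particle (chromosome 9, 106475963 to 106485424, plus strand), passed with 11.5, 11.3 and 32.5 CPM and log2 ratios of 1.42 and 1.44. Rrp9 overlaps Parp3 on the other strand, so its level is uncertain. The list median was 0.05, and it was −0.02 against wildtype replicate 1 alone and 0.07 against wildtype replicate 2 alone. Wnt pathway genes at 5 CPM or more numbered 4, with a median of −0.10, and 7 Wnt inhibitors had a median of 0.12. The receptors Lrp5 and Fzd3 stood at 17.96, 16.7 and 15.9 CPM and 9.83, 9.09 and 8.94 CPM, the adaptor Dvl1 at 13.7, 14.8 and 14.99 CPM and the transcription factor Lef1 at 7.25, 7.11 and 5.47 CPM. The kinases Csnk1a1 and Gsk3b, which mark beta-catenin for degradation, stood at 538, 505 and 569 CPM and 173, 177 and 196 CPM, and Cby1, which binds beta-catenin, at 68.8, 59.9 and 58.6 CPM. None of these passed the rule. Among p53 targets 1 gene, Mdm2, reached that level, at 153, 158 and 166 CPM. Zmat3, Sesn1 and Bax stood at 4.35, 3.52 and 3.94 CPM, 2.09, 2.97 and 3.18 CPM and 3.62, 1.85 and 2.65 CPM.

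Cytosolic ribosomal protein genes were lower as a group in the knockout members. They took 5.11, 5.07 and 4.33% of UMIs, and without Rpl29 5.04, 5.001 and 4.32%. Of 75 tested, 69 (92%) lay below both wildtype libraries and 2 above both, beside 39.5% and 39.7% of all genes tested, but only Rpl29 passed the size rule. The median log2 ratio was −0.20. Spermatocytes had 7.26, 7.43 and 6.63% and late round spermatids 4.298, 4.17 and 3.59%, with the knockout library lowest in both. The X-linked share of members was higher in the knockout library than in both wildtype libraries, by 0.0561 percentage points over the wildtype mean of 1.07 ± 0.0102% (SD, n = 2). Within the terciles, the knockout X-linked share was above both wildtype shares in the first only, and within the wildtype range in the middle and last. The knockout library also had more members in the last tercile than wildtype replicate 1, and the part of that order in the X-linked difference was not tested.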

How the data were processed

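Single-cell 3′ RNA libraries of adult mouse testis were analysed from the gene by barcode matrices of whole-number UMI counts that the authors deposited, 1 for each of 3 libraries with 32285 genes. Cell Ranger 4.0.0, Seurat 4.0.5 and the build mm10 are named, per the submitters' processing notes; the annotation and the use of strand in counting are not given in the sources used here. The barcodes were those deposited, and no annotation of cells was used. Libraries held 93418341 to 147783171 UMIs, and members a median of 23478 to 38501.

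Members were found by the rule in the report with python 3.11.15, numpy 2.4.6, scipy 1.17.1 and pandas 2.3.3, and their counts were summed per library and scaled to CPM. Sums were compared by size only, because 1 knockout library allows no test between genotypes; fold changes used 1 added CPM. Poisson and Clopper-Pearson intervals have a level of 95% and cover counting error, which is all that depth can show here. Named genes were the 4 marker genes, Tex10, the 10 genes leading over both neighbours, the 10 higher and the 10 lower with the largest smaller log2 ratio among those past the size rule, list genes past that rule and the 4 most abundant members of each list; others are said to have been chosen after their values were seen, and list genes given as examples were also chosen with their values in view. Members and gene lists were chosen with earlier results of these data known. Doublets were not removed: the automatic threshold of Scrublet (scanpy 1.11.5) marked 5, 1 and 1 of 8136, 8339 and 12014 barcodes with at least 1000 UMIs, under 0.5%, so it had not worked, and leaving out the top 8% of scores was an alternative. Sharing of 3′ ends is the percent of 31-base words of a gene's last 500 transcript bases found anywhere in other genes' transcripts. Matches outside the 3′ ends of those genes are thus included. Promoter windows are RefSeq's on GRCm38.p6, searched on both strands. Coordinates and biotypes come from a GENCODE annotation of GRCm38, to which 32235 of the 32285 genes were matched by identifier; it may not be the one used for counting.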

Additional observations from a re-analysis of the deposited data

How the results depend on the processing

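No paired analysis was possible because there is only 1 knockout library. With a protamine limit of 0.25%, the difference in the share of deep barcodes was −0.784 percentage points, 112 genes passed the size rule (57 of the 67 among them), the Tex10 log2 ratio was −0.42 and 4 genes led over both neighbours. The X-linked difference was then 0.112 percentage points, and the list median furthest from 0, among lists with at least 5 genes, was 0.21 (acrosome) in place of 0.12 (Wnt inhibitors). With a limit of 1%, 88 genes led. Without a CPM filter 187 genes passed the size rule and 123 led, and with a 1.5-fold threshold 146 passed and 163 led, since both loosen the rule. The X-linked difference was 0.0428 with a marker sum of at least 20 and 0.0444 without the top 8% of doublet scores. The difference in genes detected at 10000 UMIs was 10 without those scores, and 7.5 and 8 in other random draws, which were added after the data were seen; the cause of these changes was not tested. Without 1 wildtype library, the share difference ran from −10.67 to −4.14 percentage points, the genes past the size rule from 82 to 83, the Tex10 log2 ratio from −0.61 to −0.49, the X-linked difference from 0.0489 to 0.0633, the difference in genes detected from 13 to 19 and the list median furthest from 0 from 0.10 to 0.15. In all, 78 values of main results were counted as kept. For counts this meant staying within a factor of 1.5 of the main count, and for other values moving by less than the wildtype spread. These 78 include the values without 1 wildtype library. They also include 50 genes past the size rule with 5 CPM added. With the mean of per-cell CPM 42 genes led, 39 of them among the 54. The 22 named genes past the size rule, over 17 alternatives, passed in 365 cases and kept their direction without passing in 9. Genes detected at 10000 UMIs could not be given for members with fewer UMIs. Low genes are limited by depth: 1 UMI equals 0.0588 to 0.0806 CPM in the members of a library. With 1 knockout library of pooled mice, mouse, litter, library and genotype cannot be told apart.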

Other observations

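Long non-coding RNA genes took 4.63, 4.497 and 4.68% of UMIs in spermatocytes, 6.77, 6.90 and 7.12% in early round spermatids and 8.17, 8.43 and 8.42% in late round spermatids, so their share was higher at each later stage in every library. Mitochondrial genes took 1.86, 2.17 and 1.71%, 0.603, 0.526 and 0.381% and 0.439, 0.251 and 0.342% in the same stages. In members the knockout library was lowest in mitochondrial share and highest in long non-coding share; these values have no replicate check.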
